A study of Mus musculus with 3 samples.

Results

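The cells described here are candidate cells of the gonadal primordium, the thickened strip of epithelium beside the mesonephros from which the supporting and steroid-producing cells of testis and ovary arise. They were picked from a pooled droplet sequencing experiment by the transcripts of 5 genes. A cell barcode was taken when its summed unique molecular identifiers (UMIs, counted transcript molecules) of Nr5a1 and Amhr2 reached 1, those of Wt1, Gata4 and Lhx9 together reached 2, and Cdh5 was at 0. Of 9383 barcodes that passed the quality filter, 67 met this rule (0.714%, exact binomial 95% interval 0.554 to 0.906%). They are called gonadal cells below. They were set beside 50 barcodes chosen by a related rule, with at least 2 UMIs of the mesothelial gene Upk3b, at least 1 of Wt1 and none of Nr5a1 or Amhr2. These are called coelomic cells. The 9316 kept barcodes outside the gonadal rule, among them the coelomic cells, served as a second comparison.

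The material was the aorta-gonad-mesonephros region of mouse embryos at E10.5 with 28 to 32 somite pairs, pooled across embryos. Sorting gave 3 samples, with 1 sample each: live niche cells negative for Ter119, an endothelial gate (Ter119-negative, positive for CD31, VE-cadherin and cKit, CD41-negative) and the gate for T1-preHSCs, early precursors of blood stem cells, which took the same cells but with low CD41. No mutant, transgene or treatment is named in the labels. All cells lie in 1 matrix whose barcodes carry 8 suffixes, here libraries 1 to 8, and no label ties a library to a sort, so the matrix counts as 1 sample and no difference was tested.

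At this stage the gonad has no visible sex. It forms where cells of the coelomic epithelium, the lining of the body cavity, multiply over the mesonephros. In mouse, Wt1, Lhx9, Gata4 and Emx2 are transcription factor genes needed for the ridge to form or to grow, and Nr5a1 encodes the nuclear receptor steroidogenic factor 1, needed for both gonads and adrenal cortex, which begin as a shared Nr5a1-positive field. Amhr2 encodes the receptor of anti-Müllerian hormone, which in male embryos later drives regression of the Müllerian duct. Primordial germ cells migrate into the ridge, where somatic cells supply the ligands Kitl and Cxcl12.

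Amhr2 lies on chromosome 15 (102445367 to 102454633, plus strand, GRCm38, GENCODE annotation), Lhx9 on chromosome 1 (138825186 to 138848577, minus strand), Nr5a1 on chromosome 2 (38692656 to 38714542, minus strand), Wt1 on chromosome 2 (105126529 to 105173616, plus strand) and Gata4 on chromosome 14 (63198922 to 63271692, minus strand). The promoters of Amhr2 and Lhx9, the members of the rule that the RefSeq promoter table holds (2 of 5), are shown. Nr5a1, Gata4 and Lhx9, genes of the same rule, encode DNA-binding proteins, although the rule does not ask for all of them in the same cell. Each sequence is the 250 bases before the RefSeq transcription start on GRCm38.p6, written 5′ to 3′ on the strand of the gene, from chr15:102445117-102445366 (plus strand) and chr1:138842445-138842694 (minus strand). The Lhx9 window lies inside the GENCODE span of the gene, so the start it precedes is internal to that annotation. Capitals mark matches to the searched motifs.
Amhr2: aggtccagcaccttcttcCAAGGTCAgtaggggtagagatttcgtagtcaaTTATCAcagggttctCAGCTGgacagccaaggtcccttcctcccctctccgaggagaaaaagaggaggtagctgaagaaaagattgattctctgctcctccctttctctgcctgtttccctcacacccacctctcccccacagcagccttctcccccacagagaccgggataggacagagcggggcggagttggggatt
Lhx9: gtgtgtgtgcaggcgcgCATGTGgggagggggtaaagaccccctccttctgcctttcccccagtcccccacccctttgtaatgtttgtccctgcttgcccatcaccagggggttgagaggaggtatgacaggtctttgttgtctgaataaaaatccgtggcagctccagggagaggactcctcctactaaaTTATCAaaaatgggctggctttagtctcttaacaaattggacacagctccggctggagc

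The motifs were searched on both strands, and no match overlapped another. The Nr5a1 motif CAAGGTCA stood once in the Amhr2 window, 232 to 225 bases before the start, and had no match in the Lhx9 window. It occurs in 1.33% of the 32851 promoter windows of this length in the table. The GATA factor motif (AGATAA or TGATAA) read as TTATCA in both windows, 199 to 194 bases before the Amhr2 start and 59 to 54 bases before the Lhx9 start, and occurs in 16.6% of windows. The E-box CANNTG stood once in each, as CAGCTG in Amhr2 and CATGTG in Lhx9, and occurs in 66.2%. The LIM homeodomain motif TAATTA, present in 4.84% of windows, had no match in either. A match describes letters and is not evidence that a factor binds there.

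The 67 cells came almost wholly from libraries 1 to 4. These held 11, 21, 15 and 18 of them, libraries 5 and 6 held 1 each, and libraries 7 and 8 held none. As a share that is 65 of 6787 kept barcodes in libraries 1 to 4 (0.958%, 0.740 to 1.22%) and 2 of 2596 in libraries 5 to 8 (0.0770%, 0.00933 to 0.278%). The coelomic cells, 5, 17, 14 and 14 in libraries 1 to 4, were found in no other library. Gonadal cells had a median of 8080 UMIs (2111 to 25030) and 589356 in all, coelomic cells a median of 7581 (3196 to 23002) and 401189 in all, and the other kept barcodes a median of 7593.5. Levels are given as counts per 1000000 UMIs of a group (CPM) with exact Poisson 95% intervals. These intervals, like those of shares, cover counting error only. A count of 0 allows up to about 3 counts, which is 5.09 CPM in gonadal and 7.48 CPM in coelomic cells. No gonadal cell shared its barcode letters with a barcode of another library, where 54 barcode sequences of the matrix did so. A doublet score that marked 468 kept barcodes marked 3 gonadal and 2 coelomic cells, which stay in the main values.

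The label was checked against marker lists. The 5 gonadal genes summed to 755 CPM in gonadal cells (645 to 811 over libraries 1 to 4), 356 CPM in coelomic cells and 16.7 CPM in the other kept barcodes, which follows from the rule. The coelomic epithelial list summed to 238 CPM in gonadal cells and 803 CPM in coelomic cells, chosen in part by its gene Upk3b. Lists of other lineages, which the rule did not use apart from Cdh5, follow. Haematopoietic markers summed to 3.39 CPM, against 50.4 CPM in the other barcodes, macrophage markers to 1.70 against 49.7 CPM, erythroid markers to 3.39 against 731 CPM, germ cell markers to 5.09 against 126 CPM, and neural crest and sympathetic markers to 5.09 against 51.3 CPM. Some pooled values differ from those within single libraries. In libraries 1 to 4, where 65 of the 67 cells lie, the other barcodes held 4.93 to 30.9 CPM of germ cell markers and 1.24 to 684 CPM of erythroid markers. Endothelial markers summed to 73.0 CPM (36.5 to 96.5 over libraries 1 to 4), against 702 CPM pooled but 77.7 to 110 CPM in the other barcodes of libraries 1 to 4, ranges that overlap, and 10 gonadal cells had at least 2 UMIs of them although Cdh5 was excluded by rule. The nephric list, which contains Emx2, summed to 134 CPM in gonadal cells, 112 CPM in coelomic cells and 74.1 CPM in the other barcodes. The podocyte list summed to 96.7, 162 and 33.4 CPM, so coelomic cells had the highest level of it. In gonadal cells Lhx1, Cdh16, Nphs1 and Ptpro were at 0. Of the nephric list 6 of 8 genes and of the podocyte list 3 of 6 were detected in gonadal cells. Neural markers summed to 69.6 CPM in gonadal cells, 344 CPM in coelomic cells and 425 CPM elsewhere, smooth muscle markers to 109, 125 and 155 CPM, sclerotome markers to 39.0, 54.8 and 66.2 CPM, myotome markers to 86.5, 64.8 and 167 CPM, and gut and liver markers to 8.48, 2.49 and 24.5 CPM. Pax1, Pax9, Myod1, Myog, Elavl3 and Pax6 were at 0 in gonadal cells. Other genes of these lists were detected there: 2 of 5 sclerotome, 2 of 5 myotome and 3 of 6 neural genes. At least 1 myotome UMI was found in 24 gonadal cells, at least 1 sclerotome UMI in 16 and at least 1 neural UMI in 14. Mesenchymal markers summed to 170 CPM in gonadal cells, 389 CPM in coelomic cells and 185 CPM in the other barcodes. The part that endothelial, nephric or mesenchymal RNA has in any result was not tested.

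**Figure D1:**
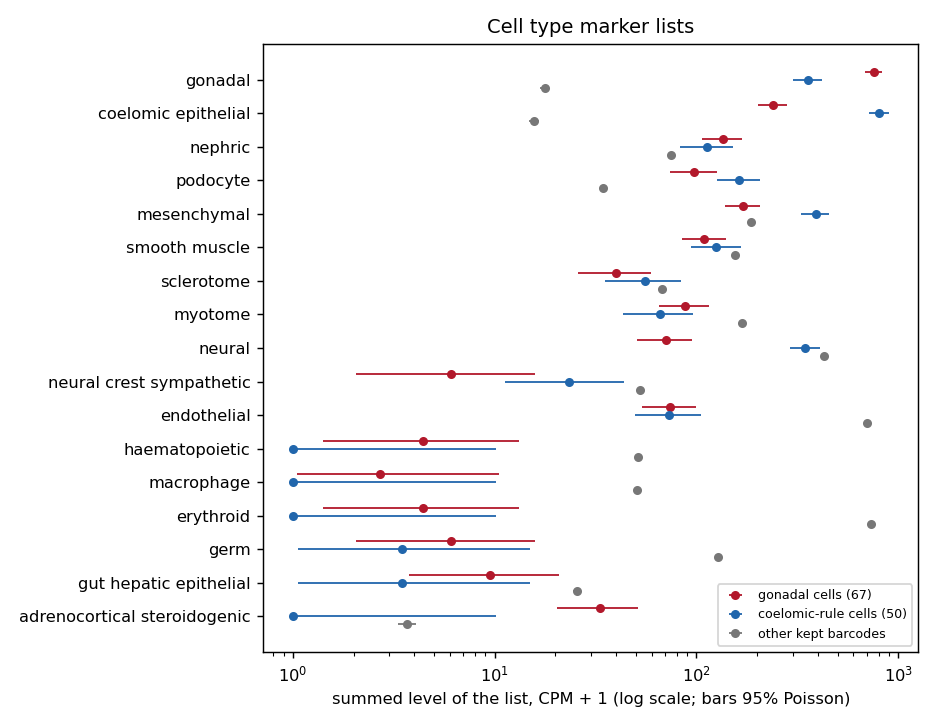
Summed level of each marker list (CPM + 1, log axis) in gonadal cells, coelomic cells and the other kept barcodes, with exact Poisson 95% intervals. The gonadal list stands at 755 CPM in gonadal cells and the coelomic epithelial list at 803 CPM in coelomic cells, while blood, germ and neural crest lists lie below 10 CPM in gonadal cells.

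The genes of the rule chose the cells, so their levels are a description. Gaps in them between groups follow at least in part from the rules. Nr5a1 stood at 124 CPM in gonadal cells (97.1 to 156, 73 UMIs in 34 cells), with 62.4, 132, 182 and 85.8 CPM in libraries 1 to 4. Amhr2 also stood at 124 CPM (73 UMIs in 54 cells), with 114, 132, 128 and 113 CPM. Both genes were found together in 21 cells, Nr5a1 alone in 13 and Amhr2 alone in 33. Amhr2 was thus seen in more of the cells and was the more even of the pair over libraries. Outside the rule Nr5a1 was at 0.463 CPM and Amhr2 at 0.630 CPM. In 1531 barcodes with at least 2 Cdh5 UMIs, an endothelial background that should lack both genes (median 8775 UMIs), 3 barcodes held Nr5a1 and none held Amhr2.

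Among the ridge factors, Lhx9 had the highest level, 239 CPM in gonadal cells (201 to 282, 53 cells), 92.2 CPM in coelomic cells and 4.96 CPM in the other barcodes. Wt1 had 207 CPM in gonadal cells (58 cells), 227 CPM in coelomic cells, whose rule asks for it, and 9.11 CPM elsewhere. Gata4 was the lowest of the factors, with 61.1 CPM in gonadal cells (32 cells), 37.4 CPM in coelomic cells and 1.53 CPM elsewhere. All 3 factors were found together in 20 of the 67 cells. Upk3b, a uroplakin of the mesothelial surface, was found in 40 gonadal cells at 187 CPM and, by rule, in all coelomic cells at 558 CPM. The gonadal cells are therefore in part cells that also carry the mesothelial gene, 23 of them with at least 2 UMIs of it.

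**Figure D2:**
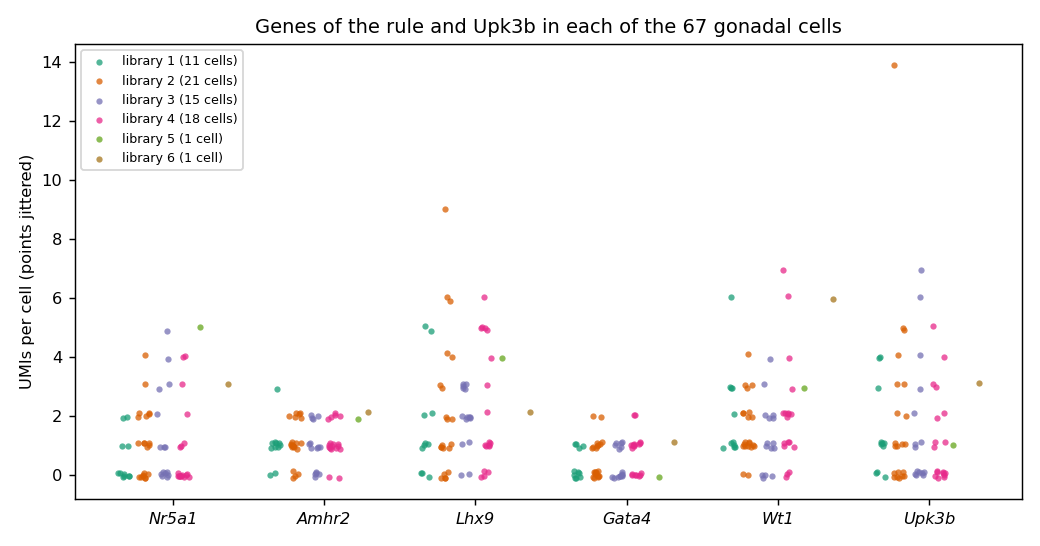
UMIs per cell of Nr5a1, Amhr2, Wt1, Gata4, Lhx9 and Upk3b in the 67 gonadal cells (UMIs on the vertical axis, 1 jittered point per cell, coloured by library). Nr5a1 is at 0 in 33 cells and Upk3b in 27, Gata4 is found in 32, and 31 cells rest on a single UMI of Nr5a1 or Amhr2.

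The threshold falls at low counts. Of the 67 cells, 31 had a single UMI of Nr5a1 and Amhr2 together, 15 had exactly 2 UMIs of Wt1, Gata4 and Lhx9, and 11 were at both limits. Just outside, 26 barcodes had Nr5a1 or Amhr2 with a single UMI of Wt1, Gata4 or Lhx9. They held Chchd10 at 313 CPM, Cck at 289 CPM, Kitl at 156 CPM and Casp6 at 213 CPM, beside 351, 143, 158 and 209 CPM in gonadal cells, and Robo2 at 23.7 CPM and Emx2 at 23.7 CPM, beside 86.5 and 102 CPM. Another 260 barcodes had at least 2 UMIs of Wt1, Gata4 and Lhx9 and neither Nr5a1 nor Amhr2, with a median of 9183 UMIs. Among them are the 30 coelomic cells with at least 2 UMIs of these factors. In the 260, Chchd10 stood at 26.2 CPM, Cck at 29.4 CPM, Kitl at 36.6 CPM, Casp6 at 66.8 CPM, Robo2 at 28.6 CPM and Emx2 at 29.0 CPM. Chchd10, Cck, Kitl and Casp6 were lower in these 260 barcodes than in the 26, while Robo2 and Emx2 were below the gonadal cells in both sets.

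The first comparison asks how gonadal cells differ from coelomic cells, taken by rule as candidates for the lining from which the ridge grows. The 2 groups may mix. A ridge cell whose Nr5a1 and Amhr2 were missed could fall among coelomic cells, as 31 of 67 gonadal cells rest on a single such UMI. Of the gonadal cells, 20 met the Upk3b and Wt1 part of the coelomic rule. Of the 50 coelomic cells, 30 had at least 2 UMIs of Wt1, Gata4 and Lhx9. Gonadal cells held more Kitl, the ligand of the Kit receptor on germ cells, more Cck, the precursor of the peptide hormone cholecystokinin, more Robo2, a receptor for Slit guidance proteins, and more Chchd10, a protein of the mitochondrial intermembrane space. They held less Krt19, a keratin of simple epithelia, less Gadd45g, a stress-response gene needed in mouse for timely onset of Sry, and no detected Wnt2, a secreted Wnt ligand. A gene was called when the log2 ratio of CPM + 10 was at least 1 in size, the higher group had at least 50 CPM, and libraries 2, 3 and 4, those with at least 10 cells of both groups, moved the same way. Of 3157 genes at that level, 32 were called higher (1.01%) and 39 lower (1.24%) in gonadal cells, 2.25% in either direction, with the 7 rule genes left out of the counts. Without library 2 these counts were 59 higher and 77 lower, without library 4 they were 65 and 70, and without library 3 they were 37 and 79. The median log2 ratio of all detected genes was 0.

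**Figure D3:**
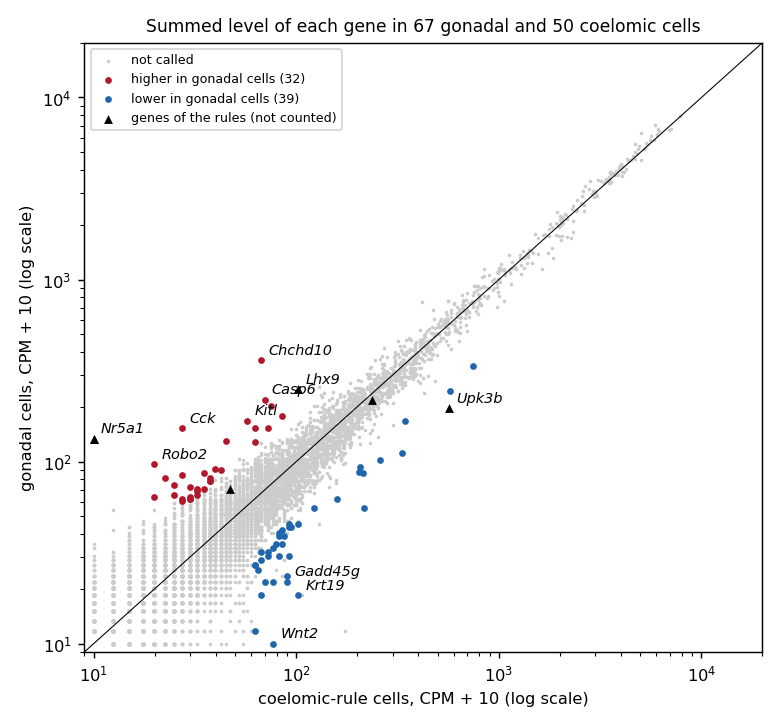
Level of each gene in gonadal cells (vertical axis) against coelomic cells (horizontal axis), in CPM + 10 on log axes, with the 32 genes called higher in red, the 39 called lower in blue and genes of the rules as triangles. Chchd10 lies at 351 CPM in gonadal cells and 57.3 CPM in coelomic cells, and Krt19 at 8.48 CPM in gonadal cells and 92.2 CPM in coelomic cells.

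Chchd10 had the highest level of the genes called higher. It had 322, 449, 310 and 263 CPM in the gonadal cells of libraries 1 to 4, against 27.8, 27.8, 107 and 68.3 CPM in the coelomic cells of the same libraries. No gonadal value fell within the coelomic range. Summed, Chchd10 reached 351 CPM in gonadal cells and 57.3 CPM in coelomic cells (log2 ratio 2.42, ratio 6.13, 3.97 to 9.88). After each cell was thinned to 5000 UMIs, Chchd10 was found in 70.0% of 60 gonadal cells (56.8 to 81.2%), 21.6% of 37 coelomic cells, 7.24% of 7454 other barcodes and 2.48% of 1373 endothelial background barcodes. Unthinned it was found in 48 of 67 gonadal and 11 of 50 coelomic cells.

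Kitl had 114, 178, 200.5 and 113 CPM in the gonadal cells of libraries 1 to 4, against 27.8, 41.7, 26.7 and 68.3 CPM in coelomic cells. The ranges did not overlap. The sums were 158 and 47.4 CPM (log2 ratio 1.55, ratio 3.33, 2.02 to 5.78), and Kitl was found in 44 of 67 gonadal cells and 11 of 50 coelomic cells. At 5000 UMIs the shares were 46.7% in gonadal cells, 16.2% in coelomic cells and 10.4% in the other barcodes. In the endothelial barcodes the Kitl share was 23.8%, above that of coelomic cells.

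Cck had 62.4, 132, 91.1 and 225 CPM in gonadal cells, against 83.3, 6.96, 26.7 and 6.83 CPM in coelomic cells. Library 1, with 5 coelomic cells and outside the direction check, ran the other way. The sums were 143 and 17.4 CPM (log2 ratio 2.47, ratio 8.17, 3.80 to 20.9), from 30 gonadal and 5 coelomic cells. The cells with Cck were a minority of the gonadal cells: at 5000 UMIs the share was 35.0%, against 8.11% in coelomic cells.

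Robo2 had 83.2, 86.3, 118 and 59.0 CPM in gonadal cells, against 0, 6.96, 40.0 and 0 CPM in coelomic cells. The sums were 86.5 and 9.97 CPM (log2 ratio 2.27, ratio 8.68, 3.19 to 33.1). The coelomic value rests on 4 UMIs. Casp6, an executioner caspase, had 208, 150, 237 and 247 CPM in gonadal cells, against 55.6, 97.4, 40.0 and 34.1 CPM in coelomic cells (log2 ratio of the sums 1.65). For both genes the library ranges of gonadal and coelomic cells did not overlap. Such gaps, here and for the other genes named, follow in part from how the genes were chosen. They were named for extreme ratios, and a call asked libraries 2, 3 and 4 to move the same way. The share of all genes with such gaps was not counted.

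**Figure D4:**
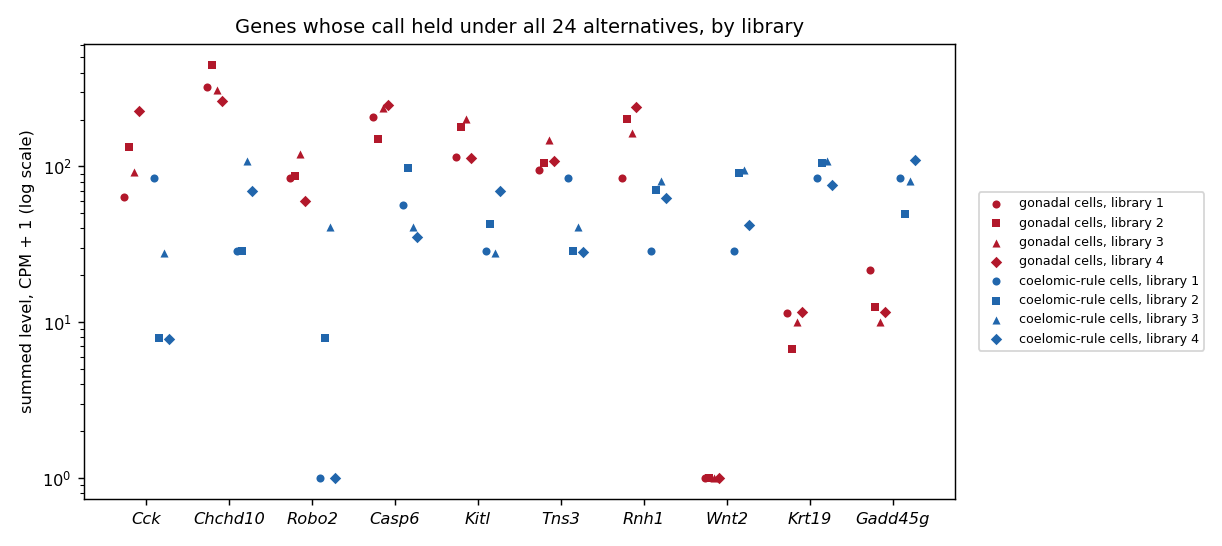
Level (CPM + 1, log axis) of the 10 genes whose call held under all 24 alternatives, in gonadal cells (red, left of each pair) and coelomic cells (blue), with 1 symbol for each of libraries 1 to 4. The red and blue symbols of Chchd10, Robo2, Casp6 and Kitl do not overlap, Krt19 and Gadd45g lie lower in gonadal cells, Wnt2 is at 0 CPM there, and for Cck library 1 is reversed.

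Other genes called higher in gonadal cells were Tns3, a tensin of focal adhesions (120 CPM in gonadal cells and 34.9 CPM in coelomic cells), Rnh1, the cytosolic ribonuclease inhibitor (192 and 64.8 CPM), Ptgr1, prostaglandin reductase 1 (76.4 and 24.9 CPM), Crispld2, a secreted cysteine-rich protein (74.7 and 17.4 CPM), Rpp25, a subunit of ribonuclease P (64.5 and 15.0 CPM), Actr6, an actin-related nuclear protein (56.0 and 15.0 CPM) and Lor, known as a protein of the skin's cornified layer (54.3 and 9.97 CPM). Of these, Tns3 had 93.6, 104, 146 and 107 CPM in gonadal cells of libraries 1 to 4 and 83.3, 27.8, 40.0 and 27.3 CPM in coelomic cells, so that library 1 separated them least. Tns3 and Rnh1 held their call in every one of 24 alternative settings. Rpp25 and Ptgr1 were not called without library 2 (log2 ratios 0.97 and 0.96), Lor not without library 1 (1.64, with its level below the minimum) and Actr6 not without library 3 (1.19, likewise).

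Among the genes called lower, Krt19 had 10.4, 5.75, 9.11 and 10.7 CPM in gonadal cells of libraries 1 to 4, against 83.3, 104, 107 and 75.1 CPM in coelomic cells, with no overlap. Krt19 summed to 8.48 CPM in gonadal cells and 92.2 CPM in coelomic cells (log2 ratio -2.47, ratio 0.0920, 0.0282 to 0.235) and was found in 5 gonadal and 16 coelomic cells. Wnt2 had no UMI in gonadal cells and 67.3 CPM in coelomic cells, from 27 UMIs in 8 cells, and so was at least 13.2-fold lower against the floor of 3 counts over the group. Gadd45g had 20.8, 11.5, 9.11 and 10.7 CPM in gonadal cells, against 83.3, 48.7, 80.0 and 109 CPM in coelomic cells (log2 ratio -2.04).

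Further genes called lower encode growth factors and receptors, matrix and a mesothelial protein. Pdgfa, a platelet-derived growth factor chain, had 1.70 CPM in gonadal cells and 52.3 CPM in coelomic cells, and its receptor Pdgfra 20.4 and 72.3 CPM. Fbln2, the matrix protein fibulin 2, had 8.48 and 57.3 CPM, the transcription factor Sox6 11.9 and 67.3 CPM, Kcne1l, a potassium channel subunit, 11.9 and 59.8 CPM, and Lrrn4, a mesothelial membrane protein, 20.4 and 82.3 CPM. Igfbp5, which binds insulin-like growth factors, had 102 CPM in gonadal cells and 322 CPM in coelomic cells, but its log2 ratio of -1.57 was -0.91 without library 4, where coelomic cells held 574 CPM. Crabp1, a retinoic acid binding protein, had 45.8 and 207 CPM, and Uchl1, a neuronal ubiquitin hydrolase, 13.6 and 79.8 CPM. A single coelomic cell of library 4 held 57 of the 83 Crabp1 UMIs and 14 of the 32 Uchl1 UMIs of the coelomic group, together with 106 of its 138 UMIs of neural markers. Without library 4, Crabp1 (-0.50), Uchl1 (-1.19), Pdgfa (-2.05) and Kcne1l (-1.02) were not called, and without library 3 Fbln2 (-1.78) was not. Without the 2 coelomic cells with at least 10 neural UMIs, Crabp1 and Uchl1 were not called (log2 ratio -0.55 for Crabp1 and -0.87 for Uchl1). No gonadal cell had more than 9 neural UMIs.

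Of the 28 genes named here and in the lists that were called, 10 kept their call under all 24 alternatives run. These were Cck, Chchd10, Robo2, Casp6, Kitl, Tns3 and Rnh1, higher in gonadal cells, and Wnt2, Krt19 and Gadd45g, lower. Not every alternative could remove a call. In each comparison of this report, a pseudocount of 1 CPM, a minimum of 20 CPM or no check of direction can only keep calls or add to them. Leaving out library 5 or 6 takes out 1 gonadal cell and no coelomic cell. Scaling by trimmed means instead of total UMIs subtracts a log2 factor of -0.07 in the comparison with coelomic cells, so log2 ratios move up. With it, 39 genes were called higher and 35 lower.

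The gene lists were read by their counts against those shares. Of 22 genes for factors of the early gonad outside the rule, 8 were at the level tested, none was called higher than in coelomic cells and 1, Gadd45g, was called lower (median log2 ratio over the list 0.19). Emx2, a homeobox factor needed for the mouse urogenital system, had 102 CPM in gonadal cells and 69.8 CPM in coelomic cells. Gata6, a relative of Gata4, had 76.4 and 57.3 CPM, and the orphan nuclear receptors Nr2f1 192 and 112 CPM and Nr2f2 159 and 117 CPM. Cbx2, a polycomb protein needed in mouse for testis formation, had 25.5 and 52.3 CPM and Tbx18, a T-box factor of the urogenital ridge, 18.7 and 47.4 CPM. None of these 6 genes was called.

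Of 10 genes in the list on supply of germ cells, Kitl alone was called (4 at the level tested, median 0.22). Cxcl12, the chemokine that guides migrating germ cells, had 260, 132, 264 and 289 CPM in gonadal cells, against 83.3, 76.5, 280 and 109 CPM in coelomic cells. In library 3 coelomic cells were the higher, and with sums of 227 and 127 CPM (log2 ratio 0.79) Cxcl12 was not called. Bmp4, a signal for germ cell formation earlier in development, had 59.4 and 107 CPM (log2 ratio -0.76).

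In the epithelial list, 7 of 15 genes were at the level tested, none was called higher and 2, Krt19 and Lrrn4, were called lower (median -0.71). Krt18 had 149 CPM in gonadal cells and 292 CPM in coelomic cells, Krt8 52.6 and 92.2 CPM, Podxl, a sialomucin of the apical surface, 69.6 and 147 CPM, and Upk1b 1.70 and 49.9 CPM. Each of these 4 was lower in gonadal cells by value and none met the call rule. Coelomic cells were chosen for at least 2 Upk3b UMIs, while 27 of 67 gonadal cells had none. How far the lower epithelial levels follow from that choice was not tested. With the 20 gonadal cells that had at least 2 Upk3b and 1 Wt1 UMIs, Krt19 and Lrrn4 stayed called, though no library entered the direction check. Ezr, the cortical linker ezrin, had 110 and 145 CPM, and Aldh1a2, which makes retinoic acid, 317 and 401 CPM. Of 19 matrix genes, 8 were at the level tested and 2 were called lower, Fn1 (52.6 and 150 CPM) and Col3a1 (78.1 and 194 CPM), with a median of -0.29. Fn1 was not called without library 2 (log2 ratio -0.87).

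Few genes of the signalling lists were called. In the Wnt list of 21 genes, Lgr4, a receptor for R-spondins, was called higher (52.6 CPM in gonadal cells and 19.9 CPM in coelomic cells, not called without library 1, log2 ratio 0.83) and Wnt2 lower. Igfbp5 was the call among 13 genes of insulin-like signalling and Crabp1 among 14 of the retinoid list. At the level tested were 1 of 13 genes of Notch signalling, 2 of 13 of the hedgehog list and 4 of 19 of bone morphogenetic protein and TGF-beta signalling. Of 30 Hox genes 6 were, and of 15 genes of adhesion and transition 5 were. None of these was called. In fibroblast growth factor signalling none of 13 genes was at that level, so no call was possible there. Dlk1, a Notch-related membrane protein, was abundant in both groups, with 1060.5 and 1279 CPM. Of the 20 S phase genes, 17 were at the level tested and none was called (median -0.11), and of the 20 G2 and M phase genes 18 were and none was called (median -0.01). Mki67, a marker of cycling cells, had 180 and 167 CPM.

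Few genes of sex determination reached the level tested. Sry, which starts testis formation in XY gonads, and Foxl2, an ovarian factor, had no UMI in any barcode of the matrix. Sox9, the target of Sry, had 27.1 CPM in gonadal cells and 44.9 CPM in coelomic cells. Fgf9, which supports Sox9 in the testis, had 10.2 and 7.48 CPM, and Wnt4 and Rspo1, which act on the ovarian side, had 32.2 and 44.9 CPM and 25.5 and 22.4 CPM. For Wnt4, 1 cell held 72.2% of the coelomic UMIs. Dhh, Dmrt1, Sox8 and Amh had no UMI in gonadal cells, which allows up to 5.09 CPM. Of 13 male pathway genes outside the rule, 1 was at the level tested and it was called lower (Gadd45g), and of 13 female pathway genes 2 were and neither was called. Both sexes were in the pool: 24 gonadal cells held Xist and no Y-linked transcript of the 4 genes read, 25 held a Y-linked transcript and no Xist, 1 held both and 17 neither. In coelomic cells these counts were 11, 16, 4 and 19.

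Transcripts of steroid production were rare. Star, which carries cholesterol into mitochondria, had 7 UMIs in 7 gonadal cells (11.9 CPM), none in coelomic cells and 0.591 CPM in the other barcodes. Mc2r, the receptor for adrenocorticotropic hormone and a marker of the adrenal cortex, had 9 UMIs in 7 gonadal cells (15.3 CPM), none in coelomic cells and 1.05 CPM elsewhere. In the endothelial background, 4 and 3 of 1531 barcodes held Star and Mc2r. Of the 67 cells, 13 held either transcript, from all of libraries 1 to 4, and 12 of these had Nr5a1 while all 13 had Upk3b. At 5000 UMIs, Star was found in 4 and Mc2r in 5 of 60 gonadal cells.

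The enzymes that follow Star in the pathway were barely seen. Cyp11a1, which makes pregnenolone from cholesterol, Hsd3b1, the next enzyme, and Nr0b1, a nuclear receptor that opposes Nr5a1, had 1 UMI each in gonadal cells, and Cyp17a1, Cyp21a1 and Cyp11b1 had none. Scarb1, a receptor that takes up cholesterol from lipoproteins, had 44.1 CPM in gonadal cells and 9.97 CPM in coelomic cells, a log2 ratio of 1.44 at a level below the 50 CPM needed for a call. Fdx1, the ferredoxin that passes electrons to Cyp11a1, had 71.3 and 64.8 CPM. Of the 14 genes of steroid production, 1 was at the level tested and none was called (median 0.23). The 6 adrenocortical markers summed to 32.2 CPM in gonadal cells (19.4 to 50.3, 19 UMIs), none in coelomic cells and 2.69 CPM in the other barcodes. Gonadal and adrenal members of the Nr5a1-positive field cannot be told apart by the rule.

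The gonadal cells were also split by their Nr5a1 count. This split was chosen after its values had been seen, and Nr5a1 is a gene of the rule, so the values are a description. By the rule, the 33 cells without Nr5a1 are those with Amhr2 alone, while cells with Nr5a1 include some with and some without Amhr2. Whether a level follows Nr5a1 itself or both genes together was not tested. Cells with 0, 1 and 2 or more Nr5a1 UMIs numbered 33, 14 and 20, with medians of 7344, 8296.5 and 8574.5 UMIs per cell. Chchd10 stood at 224 CPM (171 to 287), 356 CPM (257 to 481) and 531 CPM (433 to 644) in that order. Kitl stood at 86.5 CPM (55.4 to 129), 237 CPM (158 to 343) and 211 CPM (152 to 287). Kitl was thus lower in cells without Nr5a1 and did not increase further from 1 UMI upward. Star was at 0, 16.9 and 25.8 CPM, and Mc2r at 3.61, 8.47 and 36.1 CPM.

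Over the same 3 classes Smim1 stood at 184, 297 and 232 CPM, Emx2 at 101, 67.8 and 124 CPM and Cck at 159, 144 and 119 CPM. Igfbp5 had its highest level without Nr5a1, with 173 CPM (128 to 229) in cells without Nr5a1, 16.9 CPM (2.05 to 61.2) with 1 UMI and 51.5 CPM (24.7 to 94.8) with 2 or more. The classes differ in depth, so shares were also read at equal depth. At 5000 UMIs per cell, Chchd10 was found in 29 of 33 cells with Nr5a1 (87.9%) and in 13 of 27 without (48.1%), and Kitl in 23 of 33 (69.7%) and 5 of 27 (18.5%).

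**Figure D5:**
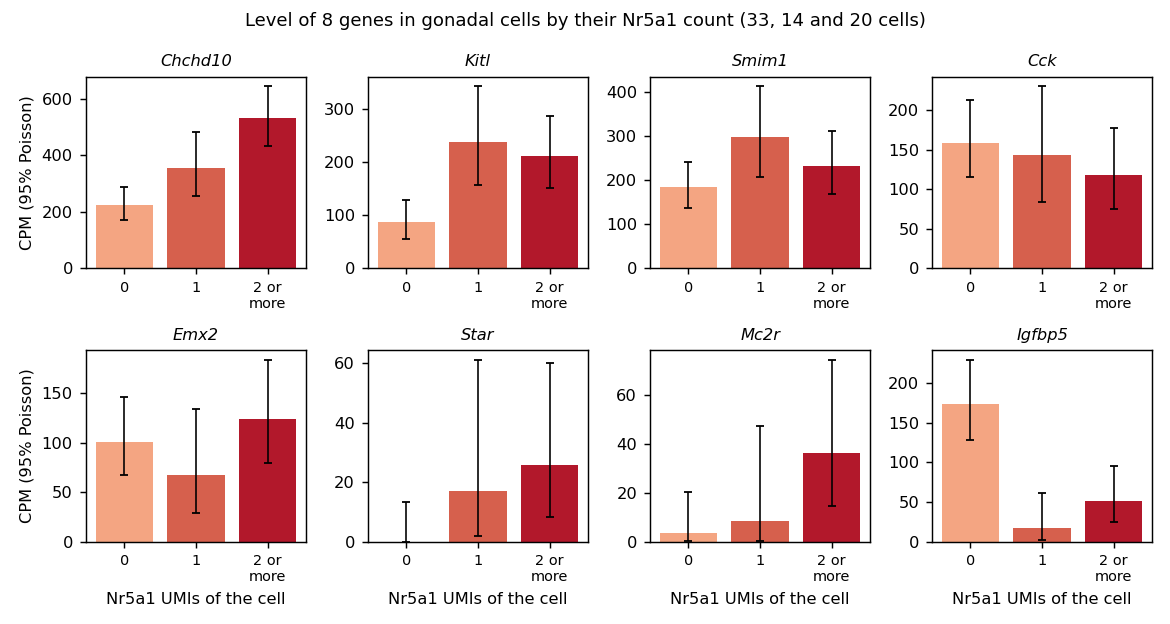
Level (CPM, with exact Poisson 95% intervals) of Chchd10, Kitl, Emx2, Smim1, Cck, Igfbp5, Star and Mc2r in gonadal cells with 0, 1 and 2 or more Nr5a1 UMIs. Chchd10 stands at 224, 356 and 531 CPM over the classes, Kitl is lowest in cells without Nr5a1, and Igfbp5 is highest there.

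Gonadal cells with Upk3b (40, median 7662 UMIs) and without it (27, median 8740 UMIs) are set side by side, again as a description. Cells with Upk3b held Chchd10 at 451 CPM and those without at 216 CPM, Nr5a1 at 171 and 60.1 CPM, and Emx2 at 135 and 56.1 CPM. Smim1, a small membrane protein known from red cells as the carrier of the Vel antigen in human, had 297 CPM with and 120 CPM without Upk3b, and Myl7, a myosin light chain of the atrium, 168 and 44.0 CPM. Osr1, a zinc finger factor of intermediate mesoderm, ran the other way, with 20.6 and 68.1 CPM. Kitl, with 156 and 160 CPM, and Aldh1a2, with 303 and 336 CPM, stood at like levels in both.

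The rule takes cells by either Nr5a1 or Amhr2, and the 13 cells with Nr5a1 alone were set beside the 33 with Amhr2 alone. Of 3296 genes at the level tested, 136 were called higher (4.13%) and 167 lower (5.07%) in cells with Nr5a1 alone, 9.19% in either direction. In no library were there 10 cells of both, so no direction was checked, and many calls rest on a few UMIs. Without library 1, 2, 3 or 4 the counts were 281, 267, 230 and 207 higher and 223, 259, 261 and 235 lower. Fabp7, a fatty acid binding protein, led with 73.3 CPM in cells with Nr5a1 alone and none in cells with Amhr2 alone, and all 9 of its UMIs came from 1 cell. Among the genes called lower, Plod2, a collagen lysyl hydroxylase, had no UMI in cells with Nr5a1 alone and 75.7 CPM in cells with Amhr2 alone (at least 3.10-fold lower against a floor of 3 counts). Des, the muscle intermediate filament desmin, had 8.14 and 101 CPM. Of the 12 genes named by rank, Plod2 was the 1 that kept its call in all 18 alternatives run. Among these, leaving out library 5 or 6 took no cell from either group (13 and 33 cells).

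Genes that led the comparison with coelomic cells stood as follows. Cck stood at 155 CPM in cells with Nr5a1 alone and 159 CPM in cells with Amhr2 alone, and Chchd10 at 309 and 224 CPM, both uncalled. Kitl, with 187 and 86.5 CPM (log2 ratio 1.03), lay just past the call limit. The ridge factor Emx2 stood at 97.7 and 101 CPM.

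Against all other kept barcodes, gonadal cells held more Aldh1a2, Krt18 and Podxl, genes of the epithelial list, more Emx2, and more of the germ cell ligands Kitl and Cxcl12. Of 3130 genes at the level tested, 107 were called higher (3.42%) and 77 lower (2.46%), 5.88% in either direction, with libraries 1 to 4 required to move the same way. Scaling by trimmed means subtracts a log2 factor of 0.09 here, so log2 ratios move down. With it, 90 genes were called higher and 88 lower. Smim1 had 222 CPM in gonadal cells and 11.8 CPM in the other barcodes (log2 ratio 3.41), Aldh1a2 317 and 26.4 CPM (3.17), Chchd10 351 and 33.2 CPM (3.06), Myl7 115 and 6.49 CPM (2.93) and Emx2 102 and 7.08 CPM (2.71). Rpp25 had 64.5 and 2.04 CPM, Rnf213, a large ubiquitin ligase, 74.7 and 3.96 CPM, and Lor 54.3 and 1.75 CPM. Lpl, lipoprotein lipase, had 143 CPM in gonadal cells (log2 ratio 2.45), and Myrf, a membrane-bound transcription factor expressed in the coelomic epithelium, had 86.5 CPM, against 8.24 CPM.

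In coelomic cells, Smim1 had 122 CPM, Aldh1a2 401 CPM, Myl7 177 CPM and Emx2 69.8 CPM, none of them called between gonadal and coelomic cells. By contrast Chchd10, Lpl, Rpp25 and Lor were called higher in gonadal cells in both comparisons, which share the gonadal cells. Kitl had 158 CPM in gonadal cells and 26.9 CPM in the other barcodes, and Cxcl12 227 and 57.7 CPM, and both were called higher here. In the germ cell list, 4 of 10 genes were at the level tested and these 2 were called.

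By list, 7 of the 22 factors of the early gonad were at the level tested. Of these, 3 were called higher than in the other barcodes (Emx2, Gata6 and Nr2f1) and 1 lower, Gadd45g, with 11.9 and 131 CPM. In the epithelial list 5 of 15 genes were at the level tested, 4 were called higher (Aldh1a2, Ezr, Krt18 and Podxl) and none lower. The median log2 ratio of the list was 1.33, where the median over all detected genes was -0.01. Of the 19 matrix genes, 9 were at the level tested and 3 were called higher, Sparc, Col1a1 and Col1a2. Dlk1, Lgr4, Igf2r, Id2 and Id3 were called higher in their lists, and Igf1, Crabp1 and Hoxb9 lower. Nr2f1, Col1a1, Col1a2 and Dlk1 were not called without library 5 (log2 ratios 0.96, 0.94, 0.93 and 0.93) or without library 6 (0.86, 0.91, 0.88 and 0.88), and Lgr4 was not without library 1 (1.70). Col1a1 was also uncalled without library 1, 3 or 4, and Hoxb9 without library 2. No gene was called in the steroid, female, adhesion, S phase or G2 and M phase lists. These held 1, 2, 4, 17 and 17 genes at the level tested. In the hedgehog and fibroblast growth factor lists no gene was at that level, so none could be called.

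The lowest ratios belong to genes of blood, endothelium and neurons. The embryonic globins Hbb-y (3.39 CPM in gonadal cells and 605 CPM in the other barcodes), Hbb-bh1 (1.70 and 241 CPM) and Hba-x (none and 282 CPM, at least 55.3-fold lower) led, with Cldn5, a tight junction protein of endothelium (none and 261 CPM, at least 51.3-fold lower), Emcn, endomucin (1.70 and 186 CPM), and Tubb3, neuronal tubulin (1.70 and 182 CPM). With libraries weighted equally Cldn5 and Emcn were not called, and their log2 ratios of -4.76 and -4.07 were -1.96 and -1.09. In libraries 1 to 4 the other barcodes held 22.6 to 35.4 CPM of Cldn5 and 12.5 to 21.7 CPM of Emcn. The globins varied between libraries, with Hbb-y at 0.711 CPM in the other barcodes of library 3 and 263 to 577 CPM in those of libraries 1, 2 and 4. The rule itself had set the endothelial gene Cdh5 at 0. Of the 43 named genes called in this comparison, 22 kept their call under all 21 alternatives run.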

How the data were processed

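The authors deposited unnormalised UMI counts in 1 matrix of 27998 genes and 9492 barcodes (78653331 UMIs) from 3 sorted samples. Per the submitters' processing notes, the authors used Cell Ranger and the mm10 build, with versions not given in the sources used here. Deposited gene and barcode names carry no unit. The filter asked for 1000 UMIs and 500 genes or more per barcode, and no more than 10% of UMIs from mitochondrial genes. The labels state a doublet rate below 5%. Doublets were scored by similarity to simulated doublets (2 per barcode) and removed in an alternative. Counts were summed per group and scaled to CPM, with a pseudocount of 10 CPM for log2 ratios. With 1 sample and no map from barcodes to sorts, nothing was tested and no standard error is given. Shares were also read after thinning each cell to 5000 UMIs, which leaves out shallower cells (60 gonadal, 37 coelomic and 7454 other barcodes remain). The 3' counting chemistry reads transcript ends, so no isoform is resolved.

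Genes were named by rank among called genes (12 highest and 12 lowest against coelomic cells, 10 and 6 against the other barcodes, 6 and 6 between cells with Nr5a1 or Amhr2 alone), leaving out rule, ribosomal, mitochondrial and unnamed genes, and by list membership. Called members of the lists, and the genes shown near the thresholds of the rule and by Nr5a1 or Upk3b count, were chosen after their values were seen. Members, gene lists and marker lists were chosen with earlier results of these data known. The method was tested on simulated counts. Alternatives changed the pseudocount, level minimum, scaling, filters, thinning, the member rule and the libraries used. Python 3.11.15, numpy 2.4.6, scipy 1.17.1, pandas 2.3.3 and matplotlib 3.10.9 were used.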

Additional observations from a re-analysis of the deposited data

How the results depend on the processing

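Counts of called genes moved with the pseudocount, the level minimum, the weighting of libraries and settings that leave fewer cells. In several of the last, 0 to 2 libraries, not 3, entered the direction check. Against coelomic cells, the 32 genes called higher became 49 with a pseudocount of 1 CPM, 7 with 50 CPM, 92 with a minimum of 20 CPM, 55 with libraries weighted equally, 242 when cells were thinned before the rules, 119 when thinned after them, 63 with members holding a UMI of Nr5a1, 70 with members without Upk3b and 51 without members holding other-lineage UMIs. The 39 called lower became 10 (50 CPM), 102 (20 CPM), 229 and 105 (thinned before and after), 63 (2 or more UMIs of Nr5a1 and Amhr2), 78 (Nr5a1) and 89 (no Upk3b). Leaving out 1 library gave 30 to 65 higher and 37 to 79 lower. In alternatives chosen after seeing the data, members with at least 2 Upk3b and 1 Wt1 UMIs gave 117 and 134, and the other-lineage filter on both groups gave 64 higher.

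Against the other barcodes, the 107 called higher became 46 (pseudocount 50 CPM) and 180 (20 CPM) and the 77 lower became 190 (20 CPM) and 127 (thinned before). Leaving out 1 library gave 100 to 134 and 69 to 95. Between cells with Nr5a1 or Amhr2 alone, the 136 higher became 14 (pseudocount 50 CPM), 544 (20 CPM), 256 (doublets removed), 901 and 581 (thinned before and after), 447 (no Upk3b) and 476 (other-lineage filter), and the 167 lower became 25, 521, 594, 515, 491 and 302 under the same settings other than doublet removal. Leaving out 1 library gave 136 to 281 and 167 to 261.

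The number of gonadal cells, 67, was 36 when thinned before the rules, 36 with 2 UMIs of Nr5a1 and Amhr2, 34 with Nr5a1, 27 without Upk3b, 46 with either other-lineage filter, 20 with Upk3b and Wt1, and 46 to 66 without 1 library. The log2 ratio turned for Rgs5 (-0.039 with Upk3b and Wt1 members) and Cdk2ap1 (-1.63, thinned before the rules). The cause of these changes was not tested. No paired analysis was possible because the comparisons are between cells of 1 pooled matrix. In the gonadal cells a count of 0 allows up to 5.09 CPM.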
